A study of Mus musculus with 26 samples.

Results

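Collagens are secreted proteins whose chains wind around each other in groups of 3 into a triple helix. Fibrillar collagens such as types I, III and V make the load-bearing fibres of the dermis, type IV forms the sheet of the basement membrane under the epidermis, type VI forms beaded filaments, and type VII anchors the basement membrane to the dermis. In skin, fibroblasts are the main source of the fibrillar and beaded types, whereas keratinocytes contribute to types IV and VII, and carcinoma cells that take on a mesenchymal, spindle-like form can transcribe collagens of the fibroblast kind.

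The genes described are those with a symbol made of Col, a type number, the letter a and a chain number, without Col17a1, that had a probe set assigned to a single gene. There were 41 of them among 18193 genes with such a probe set. The RefSeq annotation lists 43 such genes, and Col6a6 and Col28a1 had no single-gene probe set and were not analysed here. Each gene was read from 1 probe set, the one with the highest mean over the 26 arrays. By class the genes comprised 11 fibrillar chains, 6 chains of the basement membrane network, 5 beaded filament chains, 1 anchoring fibril chain, 3 short-chain network chains, 9 fibril-associated chains with interrupted helices (FACITs), 3 transmembrane chains, 2 multiplexins and 1 other chain.

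Transcripts were measured in 26 mouse skin cell lines, 1 Affymetrix M430 2.0 array per line, grown in serum and harvested in log phase. The immortalised keratinocyte lines were C5N and NK (n = 2, NK from a p53 null mouse), and P6 came from a papilloma, a benign tumour. The 12 carcinoma lines flagged as without spindle pathology, called non-spindle lines, were PDV, PDVC57, B9, B9ras, B9rassmad and E4, with no cross stated, MSCP1, MSCP5, MSC12, MSC11B and MSC7A, from tumours of Spretus/CBA mice, and SN161, from a tumour of a Spretus/NIH mouse. The 7 spindle carcinoma lines were D3, D3DP, A5, H11, MSN2, CarC and CarB. In 4 lines the spindle or keratinocyte flag was missing or went against the description. These were 2945CA and MSCb1, the latter from a Spretus/CBA mouse, B9Smad, and a keratinocyte-derived line called here the keratinocyte-derived line with conflicting labels, and they entered no comparison. No label tells of a repeat culture of a line, and several lines share a name stem, so errors and p-values refer to the spread between lines taken as independent.

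Values are log2 RMA intensities, which rank lines for 1 gene but do not rank genes against each other. The median of an array lay between 5.04 and 5.15 and values below it are low signals, where differences are compressed. In bulk RNA of a culture, fewer cells of a type and less RNA per cell cannot be told apart.

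3 non-spindle lines stood apart from their label. Cdh1, the epithelial adhesion protein E-cadherin, measured 3.25 in MSC12, 3.25 in MSC11B and 3.54 in MSC7A, within the spindle range of 3.02 to 3.78. The other 9 non-spindle lines lay between 9.13 and 11.78, and the keratinocyte lines at 11.55 and 11.60. Over 10 keratinocyte markers (keratins, cadherins and junction genes) the mean level was 11.54 and 11.68 in the keratinocyte lines, 4.51 to 5.55 in the spindle lines and 4.33 to 11.71 in the non-spindle lines, with MSC12 the lowest. Over 11 fibroblast or mesenchymal markers the mean was 5.16 in C5N and 4.49 in NK. It was 6.36 to 8.75 in the spindle lines and 4.87 to 9.10 in the non-spindle lines, with MSC12 the highest of all. 2945CA, whose spindle state is not stated, also had low Cdh1 (3.4). Means over the endothelial, leukocyte, muscle, melanocyte and chondrocyte marker lists did not exceed 5.80 in any line, although single markers did. Among the high-collagen lines the smooth muscle marker Cnn1 was at 8.53 in MSC11B and 6.09 in MSC7A. It was also at 5.68 in MSCb1 and 5.61 in MSN2. Of the other muscle markers, Des lay from 5.65 to 6.21, above the array median in all lines, and Myh11 and Myog at 4.41 or below. The macrophage marker Cd68 was at 10 in SN161, with Ptprc no higher than 4.98 in any line. Sox9, on the chondrocyte list, was at 6.27 or above in all lines but MSC7A (4.46). The parts of other cells and of the MSC12, MSC11B and MSC7A cultures in the collagen values were not tested, and results that rest on these 3 lines are given with and without them. The 2 most alike arrays were those of A5 and H11, with a Pearson correlation of 0.9876 over the 12641 genes above the array median on 2 or more arrays.

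Of the 41 collagen chain genes, 25 lay above the array median on 2 or more arrays and were tested, and 16 did not. Several collagens differed widely from line to line. The range over the 26 lines, the highest minus the lowest value, exceeded 6 log2 units for 11 of the 41 genes, and it did so for 4.37% of the 12641 genes tested. It exceeded 3 log2 units for 20 of the 41 genes, against 24.9% of all genes tested, and stayed under 1 log2 unit for 12. The shares of all genes cover only genes that passed the filter, whereas the 41 include the 16 collagens that did not. Those under 1 were 4 of the 25 tested collagens, beside 13.4% of all genes tested, and 8 of the 16 untested. The median range was 5.45 over the 25 tested collagens and 1.97 over all genes tested. The genes with ranges over 6 were Col1a1, Col1a2, Col3a1, Col5a1, Col5a2, Col6a1, Col6a2, Col6a3, Col4a5, Col8a1 and Col11a1.

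**Figure D1:**
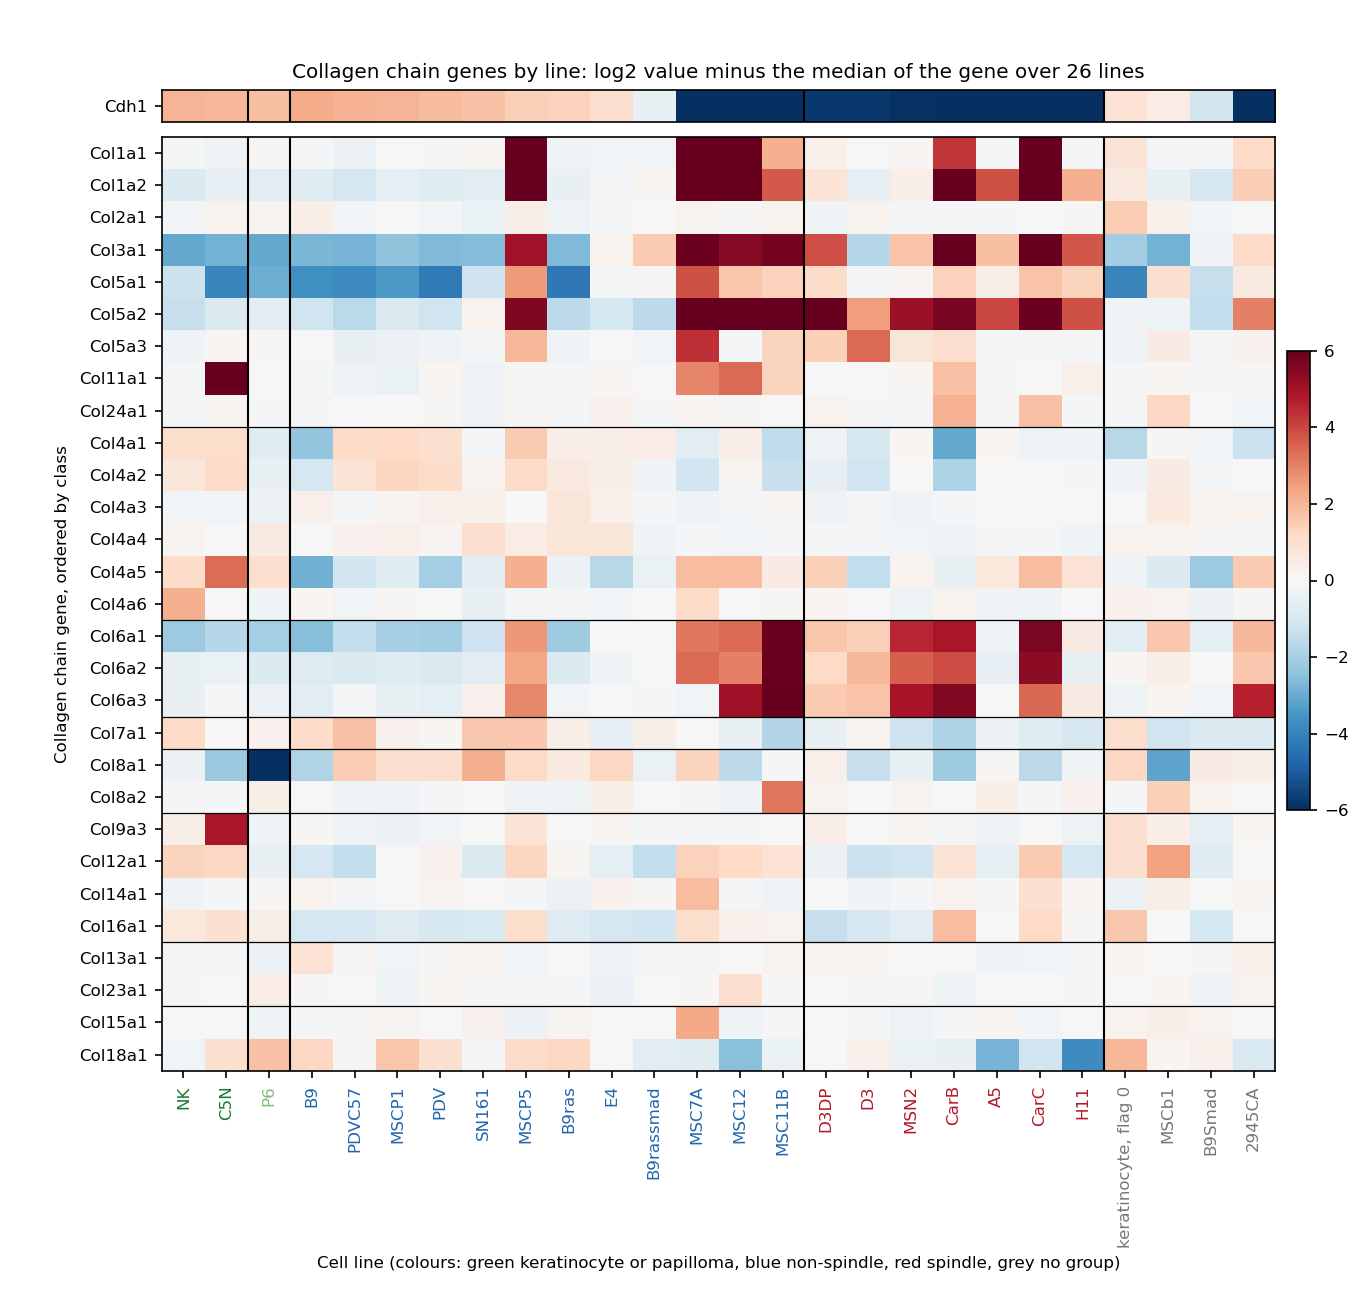
Log2 value of each collagen chain gene with a range of 1 log2 unit or more (rows, ordered by class) minus its median over 26 lines, with Cdh1 in the top strip, lines in columns grouped by label and sorted by falling Cdh1 within a group. Red is above and blue below the gene's median. Most chains of types I, III, V and VI are red in MSCP5, MSC12, MSC11B and MSC7A among the non-spindle lines and in CarC and CarB among the spindle lines, Col6a3 in MSC7A and Col5a3 in MSC12 being exceptions, while Col9a3 and Col11a1 are red in C5N.

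The type I, III, V and VI chains carried most of this spread, and they did not follow 1 pattern. The upstream sequence of 4 of these genes is shown because their transcripts were high in overlapping sets of lines. Each run is the 150 bases 5′ of the annotated transcript start in RefSeq (GRCm38.p6), read 5′ to 3′ on the gene's strand, with the last base next to the start. Capitals mark a CCAAT box, the recognition sequence of the factor NF-Y, or the letters GGGCGG, a GC box of the Sp1 kind.
Col1a2, chr6:4505468-4505617, plus strand: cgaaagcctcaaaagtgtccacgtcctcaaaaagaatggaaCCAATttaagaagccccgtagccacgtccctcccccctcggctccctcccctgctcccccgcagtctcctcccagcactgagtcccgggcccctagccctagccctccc
Col3a1, chr1:45311388-45311537, plus strand: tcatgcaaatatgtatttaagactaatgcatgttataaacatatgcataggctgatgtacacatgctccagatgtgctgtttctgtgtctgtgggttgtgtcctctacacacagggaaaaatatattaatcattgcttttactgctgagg
Col5a1, chr2:27886275-27886424, plus strand: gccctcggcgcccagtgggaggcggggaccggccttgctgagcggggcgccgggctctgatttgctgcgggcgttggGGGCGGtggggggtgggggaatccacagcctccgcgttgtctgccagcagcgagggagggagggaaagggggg
Col6a1, chr10:76726045-76726194, minus strand: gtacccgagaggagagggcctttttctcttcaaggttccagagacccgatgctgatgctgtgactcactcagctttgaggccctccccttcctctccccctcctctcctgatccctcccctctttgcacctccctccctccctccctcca
The Col1a2 window holds CCAAT with its first base 109 bases before the start, and the Col5a1 window holds GGGCGG with its first base 73 bases before it. The Col3a1 and Col6a1 windows hold neither set of letters on either strand. A RefSeq promoter window was found for 32 of the 41 genes, 35 windows in all. Within 250 bases before the start, on either strand, CCAAT occurred in 34.3% of these windows and in 33.8% of 32851 windows of all genes. GGGCGG occurred in 60.0% of them against 32.7%, and CACCTG, the letters of an E-box bound by Snail and Zeb repressors, in 11.4% against 17.2%. These are matches of letters and not sites, and none of the 3 motifs contains another.

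Col1a1 encodes the α1 chain of type I collagen, the main fibre of the dermis. It measured 3.61 in C5N and 3.87 in NK, and 3.98 in the papilloma line P6. In the 12 non-spindle lines it ran from 3.57 through a median of 3.89 to 13.42, and in the 7 spindle lines from 3.79 through a median of 4.06 to 10.72. 6 of the 26 lines exceeded their array's median for Col1a1. These were MSC7A (13.42), MSCP5 (12.65), MSC12 (11.02), CarC (10.72), CarB (8.20) and MSC11B (6.06), so that 4 of the 6 are labelled non-spindle. The other 5 spindle lines, from A5 at 3.79 to D3DP at 4.24, lay near the keratinocyte values.

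Col1a2 encodes the α2 chain, which joins a pair of α1 chains in the common form of type I collagen. It measured 5.46 in C5N and 5.12 in NK, ran from 4.96 through 5.68 to 14.13 in the non-spindle lines, and from 5.45 through 8.10 to 13.80 in the spindle lines. The same 6 lines were high, with 14.13 in MSC7A, 13.80 in CarC, 13.47 in MSCP5, 13.25 in CarB, 13.21 in MSC12 and 9.63 in MSC11B. A5 (9.79) and H11 (8.10) carried Col1a2 well above the keratinocyte lines while their Col1a1 stayed at 3.79 and 3.85. In these spindle lines, which are also the pair of most alike arrays, Col1a2 was above and Col1a1 below the array median. This alone did not set them apart, since Col1a2 was above the array median in 24 of the 26 lines and Col1a1 in 6.

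Col3a1 encodes the only chain of type III collagen, the fibre of young and healing dermis. It measured 4.37 in C5N and 4.16 in NK, ran from 4.43 through 6.13 to 13.11 in the non-spindle lines and from 5.51 through 10.93 to 13.80 in the spindle lines. 6 of the 7 spindle lines lay at 8.91 or above, and D3 lay at 5.51. In the non-spindle lines the high values were 13.11 in MSC7A, 12.97 in MSC11B, 12.69 in MSC12 and 12.25 in MSCP5, followed by 8.80 in B9rassmad and 7.43 in E4. Both B9rassmad and E4 kept high Cdh1 (9.13 and 10.6) and had Col1a1 between the keratinocyte values (3.76 and 3.77). Their means over the keratinocyte markers were lower, however, at 7.37 and 7.47 against 11.54 in C5N and 11.68 in NK. Means over the mesenchymal markers were 6.37 and 5.64, against 5.16 in C5N and 4.49 in NK.

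Type V collagen, which sits in the core of type I fibrils, was the fibrillar type with a chain above both keratinocyte lines by over 3 log2 units in every spindle line. Col5a2 measured 5.08 in C5N, 4.55 in NK and 5.29 in P6. The spindle lines ran from 8.46 in D3 through 11.10 to 12.51 in D3DP, so the lowest of them lay above every keratinocyte, papilloma and conflicting-label value. The non-spindle lines split into 4 high lines, MSC7A (13.59), MSC11B (12.84), MSC12 (12.52) and MSCP5 (11.55), and 8 lines from 4.33 to 6.14. Col5a1, the α1 partner of Col5a2, was less sharply divided. It measured 4.49 in C5N but 7.12 in NK, 8.31 to 10.12 in the spindle lines and 4.08 through 7.71 to 12.20 in the non-spindle lines, where B9rassmad (8.48) and E4 (8.28) carried it with Col5a2 at 4.40 and 4.91. Col5a3, the third and rarer chain, lay above its array's median in 7 lines, led by MSC7A (8.84), D3 (7.85) and MSCP5 (6.47).

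**Figure D2:**
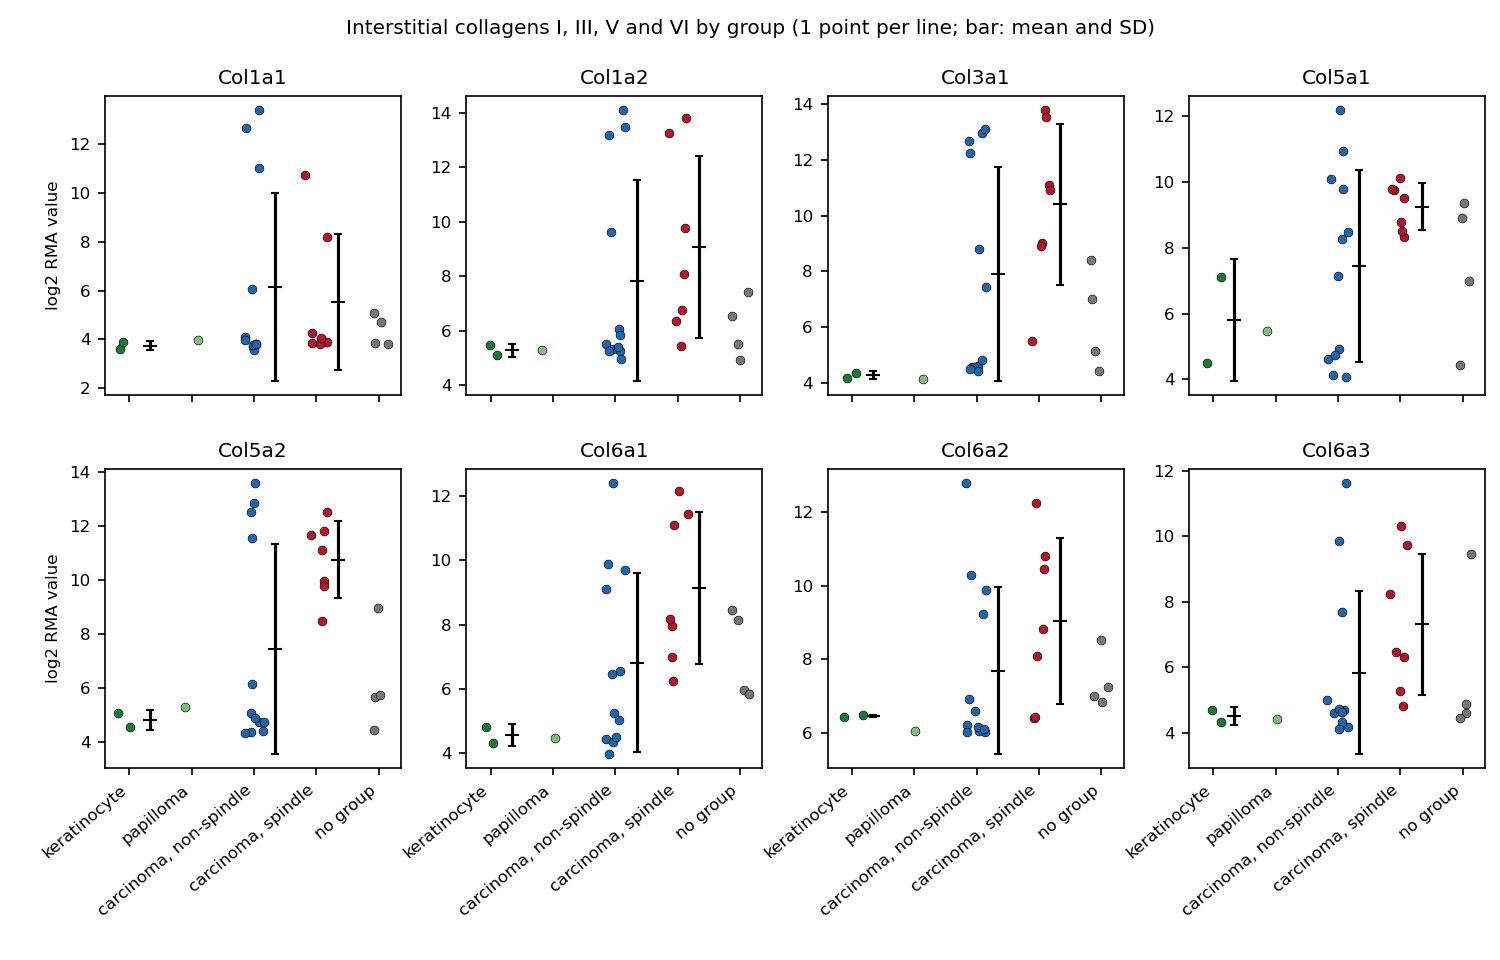
Log2 RMA value (vertical axis) of 8 chains of types I, III, V and VI in each line, by group, with 1 point per line and the mean and SD beside the keratinocyte, non-spindle and spindle groups. Non-spindle lines fall into a low and a high set for most chains, and all 7 spindle lines are at 8.46 or above for Col5a2.

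Type VI collagen is built from equal parts of α1, α2 and α3 chains, and its chains were high in nearly the same lines as types III and V. Col6a1 measured 4.81 in C5N and 4.32 in NK, ran from 6.25 through 8.17 to 12.15 in the spindle lines and from 3.97 through 5.87 to 12.40 in the non-spindle lines. MSC11B was the highest line for all 3 chains, with 12.40 for Col6a1, 12.81 for Col6a2 and 11.62 for Col6a3. MSC7A departed from this. Its Col6a1 was 9.70 and its Col6a2 10.30, but its Col6a3 was 4.63, within the range of the keratinocyte lines (4.71 and 4.32). D3 and D3DP had Col6a3 at 6.47 and 6.33 beside Col6a1 at 7.95 and 8.17, and A5 and H11 had the 2 lowest spindle values of all 3 chains. Of the remaining beaded filament chains, Col6a4 and Col6a5 did not pass the filter, with maxima of 4.58 and 3.52.

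Counting chains per line shows the lines apart from their labels. A gene was counted when it lay 3 or more log2 units above the higher of the keratinocyte lines. CarC and MSC7A had 8 such chains of the 25 tested, against 2.69% and 1.95% of all 12641 genes tested. CarB and MSC12 had 7, against 2.18% and 1.93%, and MSCP5 and MSC11B had 6, against 0.981% and 1.56%. MSN2 had 5, against 1.19%. The spindle lines D3, D3DP and A5 had 3 each, against 0.949%, 1.39% and 0.894%, and H11 had 2, against 0.926%. B9rassmad and E4 had 1, Col3a1, against 0.894% and 0.799%. Of the lines outside the comparisons, 2945CA had 4, against 1.66%, and MSCb1 had 1, against 1.99%. The 8 chains of MSC7A were Col1a1, Col1a2, Col3a1, Col5a1, Col5a2, Col5a3, Col6a1 and Col6a2, and those of CarC had Col6a3 in place of Col5a3. PDV, PDVC57, B9, B9ras, MSCP1, SN161, P6, B9Smad and the keratinocyte-derived line with conflicting labels had 0. All chains counted in these lines belonged to types I, III, V and VI.

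The first comparison across groups set the 7 spindle against the 12 non-spindle lines with limma, in 1 model with the keratinocyte lines. None of the 25 tested collagen genes had an adjusted p under 0.05, where 0.0633% of all 12641 genes did. Without adjustment 4 of the 25 had p under 0.05, beside 20.7% of all genes, so the share of collagens was not above the background. Col5a2 was 3.32 higher on the log2 scale in the spindle lines (SE 1.42, adjusted p = 0.199, limma), 10.75 ± 1.42 against 7.43 ± 3.89 (SD, n = 7 and 12). A second Col5a2 probe set, with a lower mean signal, gave a smaller difference of 1.77. The other 3 genes were lower in the spindle lines. Col7a1 differed by -1.13 (SE 0.412, adjusted p = 0.144, limma), Col8a1 by -1.27 (SE 0.517, adjusted p = 0.181) and Col18a1 by -1.35 (SE 0.582, adjusted p = 0.202). Col1a1 differed by -0.60 (SE 1.54, adjusted p = 0.857), with SDs of 2.78 in the spindle and 3.85 in the non-spindle lines. The median difference over the 25 genes was -0.02, and over all genes tested 0.04.

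These counts turn on the 3 low-Cdh1 lines in the non-spindle group. Without MSC12, MSC11B and MSC7A, 8 of the 25 collagen genes had an adjusted p under 0.05, beside 15.5% of all genes. Of these, 6 were higher in the spindle lines, namely Col3a1 by 4.18, Col5a1 by 2.88, Col5a2 by 5.17, Col6a1 by 3.62, Col6a2 by 2.45 and Col6a3 by 2.42. The other 2 were lower, Col7a1 by -1.50 and Col18a1 by -1.80. With MSCP5 also left out the count was 8 higher and 2 lower, beside 17.8% of all genes, Col1a2 and Col4a5 being added. Lines were left out for their own values here, so these counts describe what the comparison rests on and are no test.

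Against the 2 keratinocyte lines the precision was low. For non-spindle lines, 0 of 25 collagen genes were higher at an adjusted p under 0.05, beside 0.886% of all genes, and 1 was lower, beside 1.13%. For spindle lines, 0 were higher, beside 2.40% of all genes, and 1 was lower, beside 2.95%. The comparisons share the keratinocyte lines. At an unadjusted p under 0.05 there were 5 genes for non-spindle lines, beside 12% of all genes, and 7 for spindle lines, beside 20.7%. Of these 7, the genes higher in spindle lines were Col3a1 by 6.14 (SE 2.61, adjusted p = 0.184, limma), Col5a2 by 5.93 (SE 2.39, adjusted p = 0.159) and Col6a1 by 4.58 (SE 1.95, adjusted p = 0.184). The rest were lower in spindle lines, with differences of -3.09 for Col11a1, -2.65 for Col9a3, -1.42 for Col4a2 and -1.13 for Col4a6. In a fit of only the spindle and keratinocyte lines, Col5a2 and Col5a1 passed as higher, with adjusted p = 0.00475 and 0.0147 (limma), and none as lower. These 2 of 25 stand beside 9.6% of all genes called in that fit in either direction, so the share was not above the background. That fit leaves out the wide spread of the non-spindle lines.

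The gene called lower in both comparisons was Col9a3, a chain of type IX collagen, the FACIT on the surface of cartilage fibrils. It differed by -2.63 between non-spindle and keratinocyte lines (SE 0.587, adjusted p = 0.0192, limma) and by -2.65 between spindle and keratinocyte lines (SE 0.617, adjusted p = 0.0168). A single line set this difference, since Col9a3 measured 10.42 in C5N and 5.87 in NK, and no other line exceeded 6.53. Without C5N the differences were -0.35 and -0.37 and no longer called (adjusted p = 0.823 and 0.595, limma), in a fit where NK was the only keratinocyte line and was assumed to vary like the other groups. Col11a1, the α1 chain of type XI collagen, a minor fibrillar type of cartilage, shared this pattern. It measured 10.50 in C5N and 3.62 in NK. The next lines were MSC12 (7.11), MSC7A (6.63), CarB (5.45) and MSC11B (5.01), and the other 21 lay at 4.0 or below. The partners of these chains stayed low in C5N, with Col9a1 at 5.55, Col9a2 between 3.72 and 4.42 over all lines and Col11a2 between 3.80 and 4.43. Of 4 chondrocyte markers, Sox9 was 10.4 in C5N and 8.7 in NK, while Acan, Matn1 and Comp were 5.5, 3.4 and 3.9 in C5N. Any part of chondrocyte-like cells in the C5N culture was not tested.

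Type IV collagen showed the smaller and more graded spread of a gene pair transcribed in every line. The Col4a1 and Col4a2 genes lie head to head, and their RefSeq starts overlap by 22 bases at chr8:11312805-11312826 (GRCm38.p6). Both lay above the array median in all 26 lines. Col4a1 measured 11.19 in each keratinocyte line, ran from 7.81 through 10.54 to 11.73 in the non-spindle lines and from 7.09 through 9.90 to 10.25 in the spindle lines. Col4a2 measured 10.53 and 10.09, 8.07 through 9.69 to 10.71, and 7.53 through 9.29 to 9.42 in the same groups. Every spindle line was below both keratinocyte lines for both genes, and spindle and non-spindle lines overlapped. The spindle minus keratinocyte differences were -1.70 for Col4a1 (SE 0.849, adjusted p = 0.265, limma) and -1.42 for Col4a2 (SE 0.644, adjusted p = 0.214). CarB was the lowest line for both genes (7.09 and 7.53), and B9 was the lowest for Col4a1 of the lines that kept Cdh1 (7.81).

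The other network chains behaved differently from this pair. Col4a5 and Col4a6 are also head to head, on the X chromosome, with starts separated by 1342 bases. Col4a5 measured 10.94 in C5N and 8.71 in NK, and ran from 4.72 in B9 to 9.73 in MSCP5 in the non-spindle lines and from 6.14 to 9.43 in the spindle lines. Col4a6 was near background in most lines, with 7.21 in NK, 6.20 in MSC7A and no other line above 5.31. NK thus carried both chains, whereas C5N had the highest Col4a5 with Col4a6 at 5.06. Col4a3 and Col4a4, the chains of the kidney and lung network, did not pass the filter and had maxima of 4.67 and 5.28.

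Col7a1 encodes the anchoring fibril that fastens the epidermis to the dermis. It measured 7.83 in C5N and 8.95 in NK, ran from 6.04 through 8.08 to 9.53 in the non-spindle lines and from 5.95 through 7.07 to 8.0 in the spindle lines. MSC11B and CarB, rich in types III and VI, were the lowest, whereas MSCP5 had 9.39 together with its fibrillar chains. Col18a1, a multiplexin of basement membranes and the precursor of endostatin, measured 10.81 and 9.72 in the keratinocyte lines, 7.35 through 9.88 to 11.54 in the non-spindle lines and 6.07 through 9.41 to 10.16 in the spindle lines. Its 3 lowest lines were H11 (6.07), A5 (7.07) and MSC12 (7.35). The other multiplexin, Col15a1, did not pass the filter and was above its array's median in MSC7A alone (6.81, with no other line above 4.92).

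Col8a1, a short-chain network collagen known from vessel walls and the cornea, was high in carcinoma lines of either label. It measured 8.35 in C5N and 10.19 in NK, 3.91 in the papilloma line, 8.73 through 11.53 to 12.68 in the non-spindle lines and 8.40 through 10.13 to 10.85 in the spindle lines. P6 was the only line below its array median, and MSCb1 (7.39) was the next lowest. The difference between non-spindle and keratinocyte lines was 1.79 (SE 0.830, adjusted p = 0.392, limma). Its partner Col8a2 was above the array median in MSC11B alone, at 6.45.

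**Figure D3:**
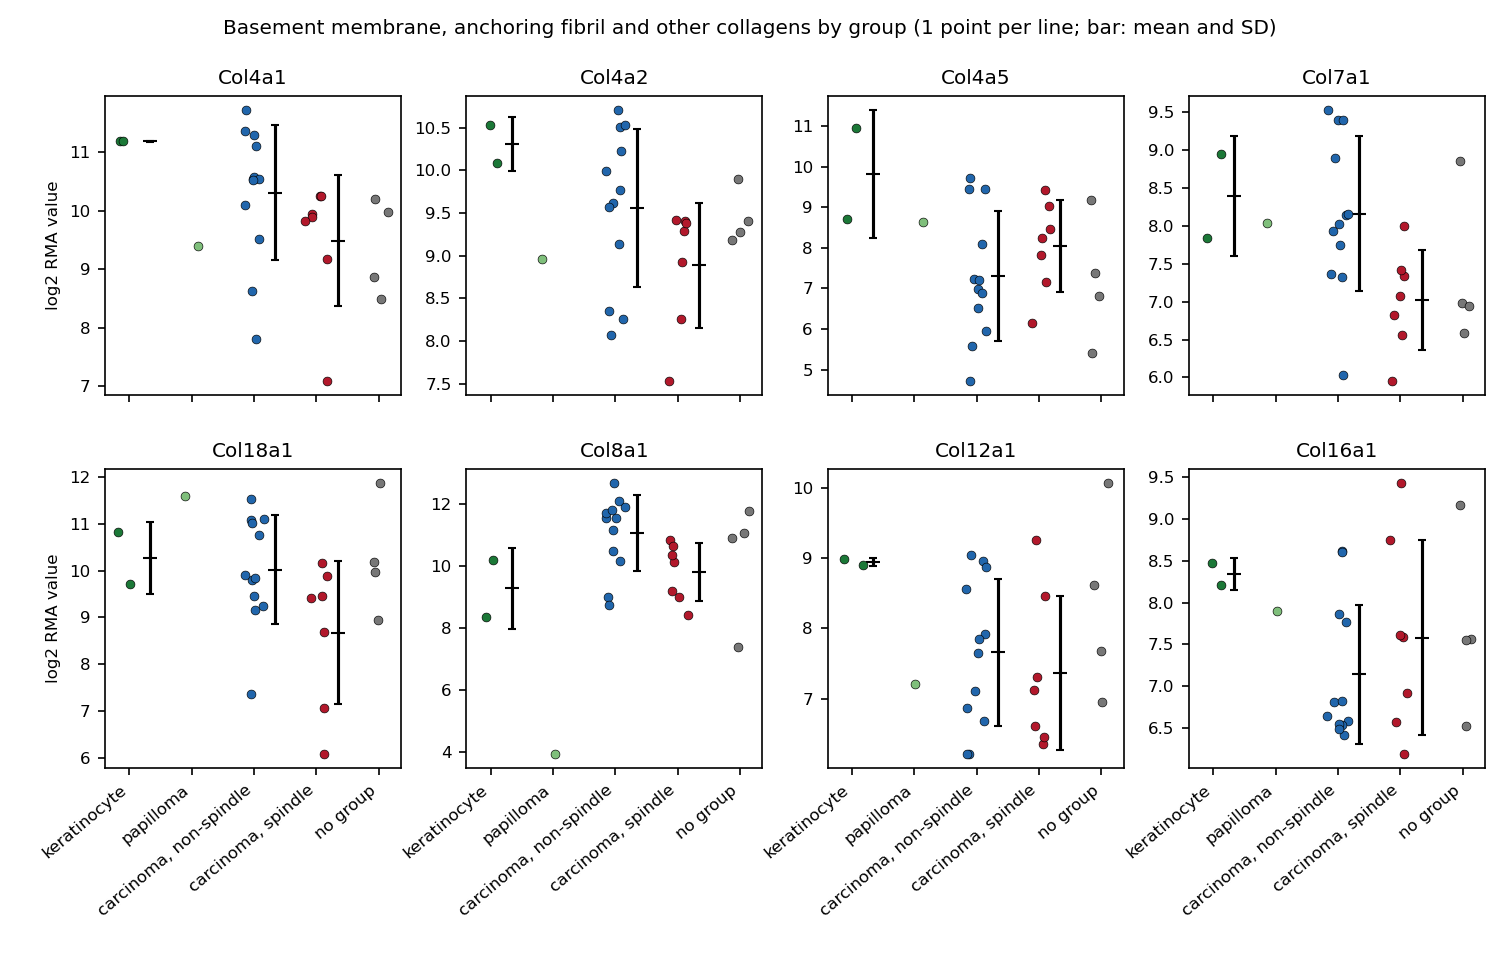
Log2 RMA value (vertical axis) of 8 basement membrane, anchoring fibril, short-chain, multiplexin and fibril-associated chains in each line, by group, with 1 point per line and the mean and SD beside the keratinocyte, non-spindle and spindle groups. Spindle lines lie lower on average than non-spindle lines for Col4a1, Col4a2, Col7a1, Col8a1 and Col18a1, with overlap in each, and P6 is at 3.91 for Col8a1.

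The FACITs lie on the surface of fibrils or link them to other matrix. Of these, Col12a1 and Col16a1 lay above the array median in every line on the probe sets read. Among the other Col12a1 probe sets, 1 ran from 4.12, below the array medians, to 10.94 (Pearson r of 0.956 with the set read). The rest stayed at 3.98 or below. Col12a1, which binds type I fibrils, measured 8.90 in C5N and 8.99 in NK, ran from 6.21 through 7.75 to 9.04 in the non-spindle lines and from 6.36 through 7.12 to 9.25 in the spindle lines, and MSCb1 was the highest line (10.07). Col16a1 measured 8.47 and 8.21 in the keratinocyte lines, 6.42 through 6.72 to 8.61 in the non-spindle lines and 6.18 through 7.58 to 9.43 in the spindle lines. CarB and CarC were high for both (8.47 and 9.25 for Col12a1, 9.43 and 8.75 for Col16a1), as were MSC7A and MSCP5. Neither gene was restricted to lines rich in type I collagen, since both keratinocyte lines had them. Col14a1, a FACIT close in structure to Col12a1, was above its array's median in MSC7A alone (5.95).

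Most of the remaining chains varied little, but the ranges of Col24a1, Col2a1, Col23a1 and Col13a1 were 2.30, 1.88, 1.36 and 1.24. Those that did not pass the filter had mostly low signals, where differences are compressed. Among tested genes the range was 0.67 for Col9a1, 0.57 for Col20a1, 0.66 for Col25a1 and 1.00 for Col27a1, and 13.4% of all genes tested had a range under 1. Col2a1, the cartilage fibril chain, stayed between 4.85 and 5.63 except for 6.73 in the keratinocyte-derived line with conflicting labels. Among the genes that did not pass the filter, Col24a1, a minor fibrillar chain, reached 5.09 in CarB, 4.73 in CarC and 4.24 in MSCb1, with no other line above 3.24. Col23a1, a transmembrane chain, reached 5.34 in MSC12. The other untested chains, Col10a1, Col13a1, Col19a1, Col22a1 and Col26a1, did not exceed 5.11 in any line.

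Cdh1 and the collagens were set side by side line by line, without averaging lines by Cdh1. Of the 11 lines with Cdh1 under 5, which are the 7 spindle lines, MSC12, MSC11B, MSC7A and 2945CA, the lowest Col5a2 value was 8.46. Of the 15 lines with Cdh1 of 8.49 or more, 14 had Col5a2 at 6.14 or below, and MSCP5 had 11.55 with a Cdh1 of 11. MSCP5 was the highest of these 15 lines also for Col1a1 (12.65, the next being 4.70), Col1a2 (13.47, the next 6.53), Col3a1 (12.25, the next 8.80), Col5a1 (10.96, the next 9.35), Col6a1 (9.12, the next 8.14) and Col6a3 (7.68, the next 5.01). Its mean over the keratinocyte markers was 11.3, with Krt14 at 14.3 and Krt5 at 13.8, and its mean over the mesenchymal markers was 7.07. The mesenchymal markers were divided. Vim was at 13.7, Pdgfrb at 11.5, Postn at 10.5, Twist2 at 8.6 and Prrx1 at 8.4. Pdgfra was at 5.1, Dcn at 4.7, Thy1 at 4.2, Dpt at 3.7, and Lum and Fap at 3.6. Vim was also at 12.9 in PDV and 12.8 in MSCP1, which kept Cdh1, but at 5.1 in B9. Whether cells of more than 1 type lay behind these values was not tested. For Col1a1 low Cdh1 went with low values too, since A5 had 3.79 with a Cdh1 of 3.23. Col7a1 and Col18a1 ran the other way without a clear gap. Col18a1 was at 9.24 or above in all 15 lines with high Cdh1 and from 6.07 to 10.16 in the 11 with low Cdh1.

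**Figure D4:**
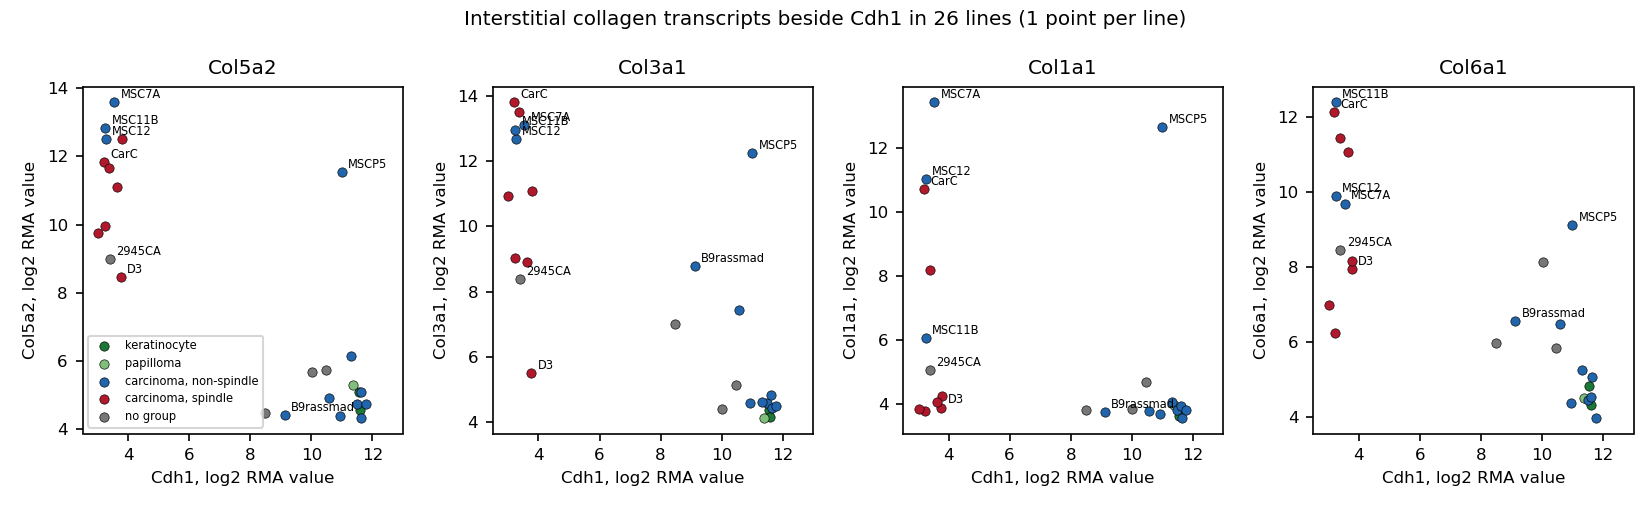
Log2 RMA value of Col5a2, Col3a1, Col1a1 and Col6a1 (vertical axes) against Cdh1 (horizontal axis), 1 point per line, 26 lines. Lines with Cdh1 under 5 all have Col5a2 of 8.46 or more, MSCP5 combines high Cdh1 with high collagen, and Col1a1 is low in 5 of the 7 spindle lines.

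The comparison by cross set the 6 non-spindle lines from Spretus crosses against the 6 with no cross stated. No gene had an adjusted p under 0.05 (limma), 0.0% of all 12641 genes and 0 of the 25 collagens. At an unadjusted p under 0.05 there were 11 of the 25 collagens, beside 10.9% of all genes, and all 11 were higher in the Spretus lines. They were Col1a1, Col1a2, Col3a1, Col4a5, Col5a1, Col5a2, Col6a1, Col6a2, Col6a3, Col12a1 and Col16a1, with adjusted p from 0.417 to 0.439. Col5a2 had the largest difference, 5.71 (SE 1.38, adjusted p = 0.417, limma), 10.29 ± 3.69 against 4.58 ± 0.24 (SD, n = 6 and 6). The median difference was 1.16 over the 25 collagens and 0.02 over all genes tested. The Spretus lines were not alike, since MSC7A, MSC12, MSC11B and MSCP5 held the high values and MSCP1 and SN161 lay at 5.08 and 6.14 for Col5a2. Without MSC12, MSC11B and MSC7A the Col5a2 difference was 3.01 (adjusted p = 0.988), and with MSCP5 also left out it was 1.03 (adjusted p = 0.998). Without MSCP1 it was 6.75 (adjusted p = 0.0280). All but SN161 of the Spretus lines share the MSC name stem, so the cross and the line family cannot be told apart.

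In Col4a5, Col16a1 and Col12a1, chains of other classes, the same 4 Spretus lines were the high ones. Col4a5 was 2.23 higher in the Spretus lines (SE 0.611, adjusted p = 0.417, limma), with 6.88 through 8.76 to 9.73 against 4.72 through 6.23 to 7.24. The 4 lines lay from 8.08 in MSC11B to 9.73 in MSCP5, while MSCP1 was at 6.88 and SN161 at 6.98. Col16a1 was 1.16 higher (SE 0.329, adjusted p = 0.417), with 6.64 through 7.82 to 8.61 against 6.42 through 6.54 to 6.81. The 4 lines lay from 7.77 to 8.61, while MSCP1 was at 6.82 and SN161 at 6.64. Col12a1 was 1.33 higher (SE 0.441, adjusted p = 0.417, limma), and the 4 lines lay from 8.55 in MSC11B to 9.04 in MSC7A. MSCP1 was at 7.7 and SN161 at 6.87, and PDV was the highest line with no cross stated (7.92). The ranges of the crosses overlapped in each of these genes.

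Chains that assemble into the same trimer were compared across the 26 lines as a description. The points share arrays and line families, and a few high lines weigh heavily in the fibrillar and beaded pairs. Col6a1 and Col6a2, neighbours on chromosome 10, had the closest relation, with a Pearson r of 0.959 and a Spearman rho of 0.923 over 26 lines, and 0.978 and 0.895 over the 12 non-spindle lines. Col1a1 and Col1a2, on different chromosomes, had an r of 0.919 but a rho of 0.651, the high lines agreeing and the low lines having no common order. The values for Col4a1 and Col4a2 were 0.877 and 0.858, and for Col5a1 and Col5a2 0.816 and 0.827. Col6a1 and Col6a3 had 0.859 and 0.891, with MSC7A off the line. Without the 2 lines farthest from the median of the first gene, the Pearson r of these 5 pairs was 0.802 to 0.947. Col4a5 and Col4a6, by contrast, had an r of 0.212 and a rho of 0.0756 despite their head-to-head position, and Col8a1 and Col8a2 had -0.170 and -0.321.

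**Figure D5:**
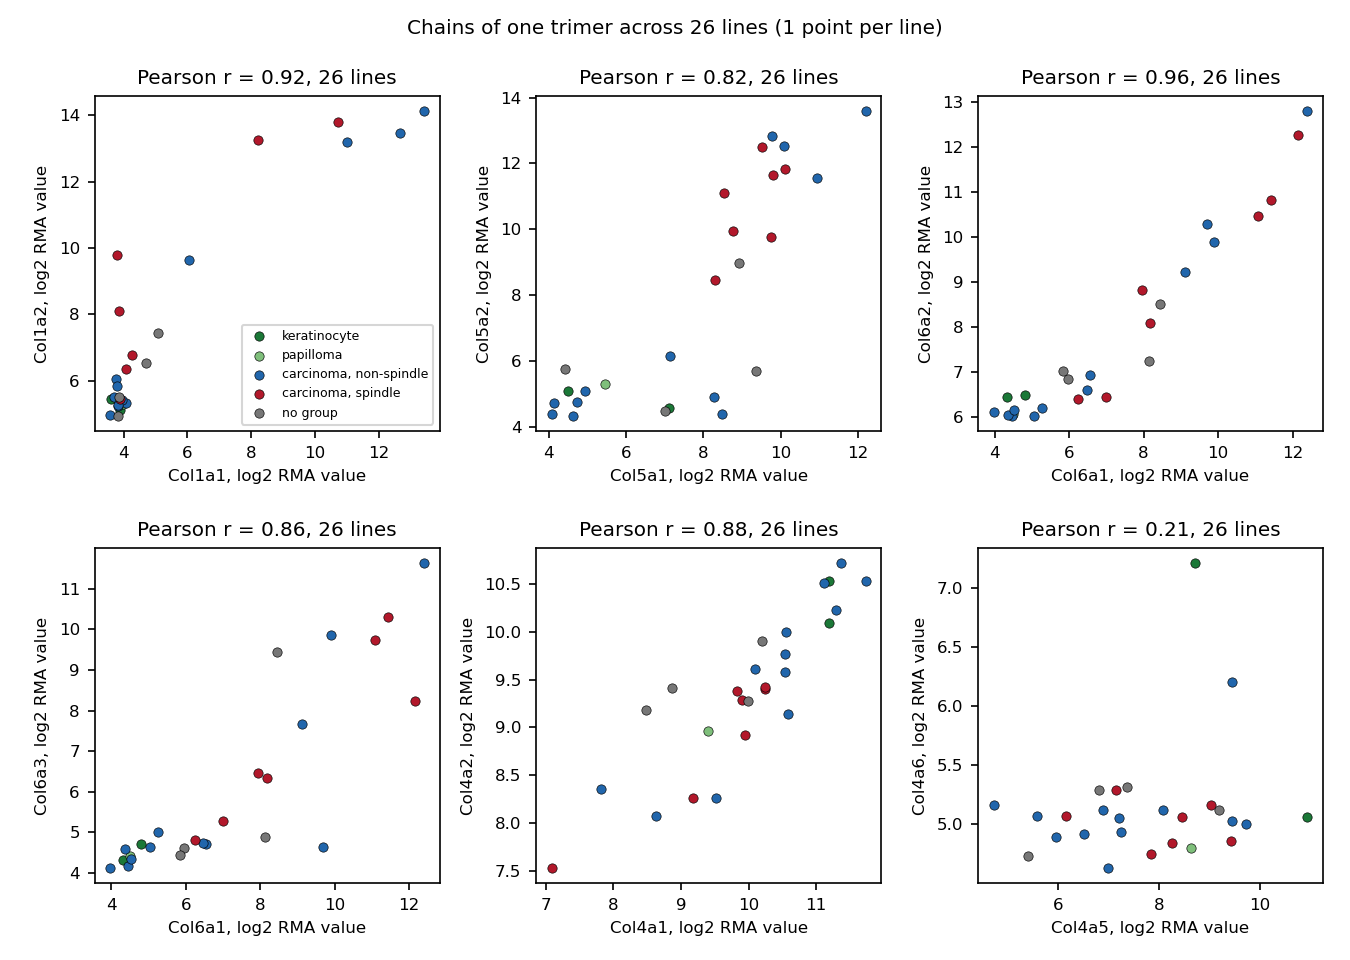
Log2 RMA value of 1 chain (horizontal axis) against another chain of the same collagen type (vertical axis), 1 point per line, 26 lines, coloured by group. Col4a1 and Col4a2 rise together across the plot, Col6a2 stays near 6 in the lines with low Col6a1 and rises with it above that, Col1a1 stays low in several lines with raised Col1a2, and Col4a5 and Col4a6 show little relation (r = 0.212).

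Genes that modify, fold, bind or recognise collagen were counted from lists chosen with earlier results of these data known. Of 22 tested genes for modification, folding and trimming, 0 were called between spindle and non-spindle lines and 0 by cross. Of all genes tested, 0.0633% and 0.0% were called in these comparisons. Plod2, the lysyl hydroxylase that prepares cross-links in collagen telopeptides, was called in both comparisons with keratinocytes, 4.20 higher in non-spindle lines (SE 0.654, adjusted p = 0.00151, limma) and 4.72 higher in spindle lines (SE 0.686, adjusted p = 0.000546). These calls stand beside 0.886% of all genes called higher in non-spindle and 2.4% in spindle lines. Pcolce, which speeds the trimming of fibrillar procollagens, was 8.47 higher in spindle than in keratinocyte lines (SE 2.22, adjusted p = 0.0307). Of 7 tested receptor and uptake genes, the collagen receptor kinase Ddr2 was 2.86 higher, and its epithelial counterpart Ddr1 differed by -2.15 between spindle and keratinocyte lines (SE 0.822 and 0.591, adjusted p = 0.0468 and 0.0392, limma). Of all genes, 2.95% were called lower in spindle than in keratinocyte lines. No receptor was called in the other comparisons. Of 15 tested fibril and network partners such as Dcn, Sparc and Lamc1, 0 were called in any of the 4 comparisons. The median spindle minus keratinocyte difference was 0.67 over the modification genes, 0.65 over the receptors and 0.48 over the partners, beside 0.04 over all genes tested. For non-spindle minus keratinocyte lines the medians were 0.71, 0.28 and 0.39 in that order, beside 0.02. For spindle minus non-spindle lines they were -0.18, 0.47 and 0.05, beside 0.04. The chaperone Serpinh1, needed for collagen folding, differed by -0.03 between spindle and keratinocyte lines (SE 2.03, adjusted p = 0.997).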

How the data were processed

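Total RNA from 26 lines was hybridised to 1 array each. The deposited log2 values are those the authors obtained by RMA, as stated in the submitters' processing notes, and the RMA version and software were not given in the sources used here. RMA forces similar distributions on all arrays, which hides differences in total RNA content, and it compresses low values. Probe sets were named from the platform annotation. Lines were grouped where cell type description and flags agreed, and replicate numbers follow the order of deposition and pair nothing.

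Genes above the array median on 2 or more of 26 arrays (12641 of 18193) were tested by linear models in R 4.3.3 with limma 3.58.1 (lmFit, eBayes), keratinocyte, non-spindle and spindle lines in 1 model and the crosses within the non-spindle lines. Adjusted p-values are Benjamini-Hochberg over all 12641 genes, with a threshold of 0.05, and the fit was tested on simulated data. The collagen genes, partner and marker lists and the 3 lines left out together were chosen with earlier results of these data known. By the rule for naming, every collagen gene, partner, marker and Cdh1 could be named. Alternatives varied the filter, the probe set per gene, the prior, the line families, the unassigned lines and the lines left out. Promoter windows came from RefSeq (GRCm38.p6). The number of arrays limits the precision.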

Additional observations from a re-analysis of the deposited data

Results flagged for a closer look

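Within groups of 6 or 7 lines, the highest or lowest line was set against the others by Dixon's test, on 25 genes and 75 sets of lines. It marked 6 sets (8%), where chance marks about 1 in 20 if values are normally spread. The test was not run over all genes, so the marked lines are listed as a description and not as a trait of collagens. Col4a1 was low in CarB among the spindle lines, at 7.09 with the nearest line at 9.18, and low in B9 among the non-spindle lines with no cross stated, at 7.81 with the nearest at 10.54. Among the Spretus non-spindle lines Col4a6 was high in MSC7A (6.20, the nearest 5.12) and Col9a3 in MSCP5 (6.35, the nearest 5.55). Col11a1 was high in CarB among the spindle lines (5.45, the nearest 4.0). Col27a1 was high in B9 (7.06, the nearest 6.82), a gap of little size.

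Lines outside the comparisons also carried collagen transcripts 3 or more log2 units above the higher keratinocyte line, 4 of 25 in 2945CA beside 1.66% of all genes tested, and 1 in MSCb1 beside 1.99%. 2945CA had Col3a1 at 8.40 against 4.37, Col5a2 at 8.98 against 5.08, Col6a1 at 8.45 against 4.81 and Col6a3 at 9.45 against 4.71, with Cdh1 at 3.4. MSCb1 had Col6a1 at 8.14 against 4.81, with Cdh1 at 10. The cause of these values was not tested.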

How the results depend on the processing

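For spindle against non-spindle lines, leaving out MSC12, MSC11B and MSC7A gave 6 collagens higher and 2 lower. Leaving out MSCP5 as well, chosen after seeing the data, gave 8 and 2, where the full groups gave 0 and 0. The shares of all genes called in these fits were 15.5%, 17.8% and 0.0633%, in that order. Leaving out 1 line at a time gave 0 to 1 lower, the 1 being Col7a1 (-1.33, adjusted p = 0.0434) without MSC11B. For non-spindle against keratinocyte lines the 1 lower call became 0 with the mean over probe sets, 2 without the 4 lines, and 1 to 2 leaving out 1 line at a time (2 without NK). For spindle against keratinocyte lines it became 0 with the mean over probe sets, 0 with only those groups in the fit (where 2 were higher) and 1 to 2 leaving out 1 line at a time (2 without NK). Without C5N the call of Col9a3 passed to Col4a6 (-2.11 and -2.20), and without NK Col11a1 joined it (-6.23 and -6.53), each in a fit with a single keratinocyte line whose spread is taken from the other groups. By cross, leaving out 1 line gave 0 to 1 higher. Col4a6 reversed to 0.036 without NK, and Col11a1 to 0.65 and 0.36 without C5N, against non-spindle and spindle lines. The name family as a random block (correlation 0.104 and -0.0788), the filters, the trended prior and placing the unassigned lines changed no count by over 1.5 times. Counts for the other settings in this section stand without the share of all genes called. A changed count is therefore not read as particular to the collagens. The causes were not tested. No paired analysis was possible because the labels carry no replicate numbers. With 2 keratinocyte lines, 1 line can make or end a call.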
